A study of Mus musculus with 6 samples.

Results

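The 10 genes described here encode muscle ubiquitin ligases and Kelch proteins: the RING-type ligases *Trim63*, *Trim54* and *Trim55*, the F-box proteins *Fbxo32* and *Fbxo40*, the Kelch proteins *Klhl30*, *Klhl31*, *Klhl40* and *Klhl41*, and the SOCS-box protein *Asb5*. They were taken by name from the 23231 genes that had counts in at least 1 of 6 RNA-Seq libraries, and all 10 were found. The libraries came from C2C12, an immortalized mouse myoblast line that forms multinucleated myotubes in low serum. All cells carried a lentivirus for dCas9-KRAB, a nuclease-dead Cas9 joined to the KRAB repressor domain, at a multiplicity of infection of 100. They were selected with 2 μg/ml puromycin and kept in 2% horse serum up to day 5, when RNA was taken. The 3 libraries of dCas9-KRAB cells had no enhancer guide. The 3 dCas9-KRAB-En5 libraries also carried 2 sgRNAs against Myog-En5, a putative enhancer of *Myog*. The comparison asks how the 10 genes differed between cells with and without these guides. Both groups are transduced and selected cells, and an untransduced control was not analysed here. Nothing in the labels says whether the 3 libraries of a group came from separate cultures, so the p-values measure the spread between these libraries.

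Ubiquitin ligases attach ubiquitin to chosen proteins, which often marks them for the proteasome. In skeletal muscle *Trim63* (MuRF1) and *Fbxo32* (atrogin-1) are the classical ligases of atrophy, the loss of muscle protein in disuse, fasting and disease. The MuRF proteins are RING ligases that sit on the sarcomere and bind titin, F-box proteins bring substrates to ligases built on cullin 1, Kelch proteins with a BTB domain do so for cullin 3, and SOCS-box proteins for cullin 5. *Klhl40* and *Klhl41* are also known for holding thin filament proteins such as nebulin stable, and loss of either causes nemaline myopathy.

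The libraries held 31831093 to 73988425 counts. The counts of the targeted gene went with the labels. *Myog*, the myogenin gene, had 43211, 68488 and 74845 counts in dCas9-KRAB and 12, 0 and 0 in dCas9-KRAB-En5, given here and below in the order of replicates 1, 2 and 3. Other muscle and myoblast markers, given below, were also low in dCas9-KRAB-En5, so these counts cannot check whether the guides repressed the element. Its level was 1136 ± 80.9 TPM (TPM scale counts to gene length and library size; SD, n = 3) against 0.126 ± 0.219 TPM (SD, n = 3). dCas9-KRAB-En5 replicate 3 stood apart, with 13991 genes listed against 17084 to 19395 in the others and 25.8% of counts on ribosomal protein genes against 10.8% to 19.4%. The myoblast label was checked against marker genes. The summed level of 10 skeletal muscle markers was 16550 to 19131 TPM in dCas9-KRAB and 14.9 to 22.9 TPM in dCas9-KRAB-En5, and that of 10 myoblast markers was 165 to 491 TPM and 9.85 to 30.4 TPM, with *Chodl* at 0 in all 6 libraries and *Msc* at 0 in dCas9-KRAB-En5. The dCas9-KRAB-En5 libraries were therefore low in markers of myoblasts as well as of myotubes. All 6 libraries held macrophage markers: the 12 genes summed to 4158 to 4831 TPM in dCas9-KRAB and to 5665 to 8864 TPM in dCas9-KRAB-En5, and 8 of the 12 were at 10 TPM or more in every library, with *Mrc1* at 0 throughout. The sums did not hold gene by gene: 2 of the 12 lay above all dCas9-KRAB libraries in every dCas9-KRAB-En5 library, and 0 lay below. By edgeR 1 of the 11 tested was called higher and 0 lower, beside 1.52% and 4.67% of all genes tested. With replicate number as a block, 2 were called higher and 0 lower, beside 567 and 976 of 14378 genes. Of the other lists, 9 fibroblast markers summed to 69.2 to 200 TPM against 19.7 to 37.8 TPM, with *Thy1* at 0 throughout. The 6 smooth muscle markers summed to 167 to 361 TPM against 4.96 to 10.8 TPM, 9 cardiac markers to 3.64 to 5.80 TPM against 1.31 to 2.02 TPM, and 6 adipocyte markers to 1.49 to 1.95 TPM against 3.42 to 9.92 TPM, where *Fabp4* rose from 0.433 to 0.673 TPM to 3.42 to 9.77 TPM while *Pparg* was at 1.06 to 1.47 TPM against 0 to 0.128 TPM. The part of these marker differences in the results for the 10 genes was not tested, and in bulk RNA fewer cells of a type cannot be told apart from less RNA per cell.

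For 5 of the 10 genes, a RefSeq window of 250 bases ending just before the transcription start lay at or within 100 bases of the start annotated by GENCODE (GRCm38 and GRCm38.p6). These windows are shown because the set holds 4 genes that fell and 1, *Fbxo40*, that was not past the cutoffs. They are chr4:134314870-134315119 for *Trim63*, chr5:31116362-31116611 for *Trim54*, chr9:121777357-121777606 for *Klhl40* and chr2:69669870-69670119 for *Klhl41*, all on the plus strand, and chr16:36990468-36990717 on the minus strand for *Fbxo40*. Sequences run 5′ to 3′ toward the gene, and capitals mark each E-box, CANNTG, the kind of site that MYOG and MYOD1 are known to bind, and each MEF2 motif.
Trim63: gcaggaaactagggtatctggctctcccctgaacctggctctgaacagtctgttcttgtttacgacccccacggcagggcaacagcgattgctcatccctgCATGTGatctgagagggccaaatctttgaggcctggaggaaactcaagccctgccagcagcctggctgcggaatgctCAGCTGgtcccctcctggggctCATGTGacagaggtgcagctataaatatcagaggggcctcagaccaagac
Trim54: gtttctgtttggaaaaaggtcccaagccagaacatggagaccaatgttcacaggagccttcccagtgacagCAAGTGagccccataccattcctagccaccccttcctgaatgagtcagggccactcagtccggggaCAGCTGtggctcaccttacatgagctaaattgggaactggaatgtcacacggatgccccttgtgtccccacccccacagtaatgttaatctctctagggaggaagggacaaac
Klhl40: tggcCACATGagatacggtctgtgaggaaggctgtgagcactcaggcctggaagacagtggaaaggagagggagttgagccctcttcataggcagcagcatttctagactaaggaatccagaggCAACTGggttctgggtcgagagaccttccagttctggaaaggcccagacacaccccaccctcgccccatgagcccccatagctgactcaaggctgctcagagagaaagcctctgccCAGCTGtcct
Klhl41: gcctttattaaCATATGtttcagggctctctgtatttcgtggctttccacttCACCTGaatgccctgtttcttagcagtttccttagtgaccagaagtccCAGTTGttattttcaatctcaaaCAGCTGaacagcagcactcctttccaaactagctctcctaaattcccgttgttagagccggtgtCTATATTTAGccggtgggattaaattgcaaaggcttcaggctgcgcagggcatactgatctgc
Fbxo40: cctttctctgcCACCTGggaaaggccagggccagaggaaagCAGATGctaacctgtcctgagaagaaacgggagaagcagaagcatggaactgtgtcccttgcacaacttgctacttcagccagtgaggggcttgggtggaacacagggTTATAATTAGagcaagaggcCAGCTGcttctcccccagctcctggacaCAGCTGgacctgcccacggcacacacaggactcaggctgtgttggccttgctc
The E-box form CAGCTG, the same on both strands, was present in all 5 of these windows, but in none of the 3 RefSeq windows of *Asb5* nor in that of *Klhl31*, which are farther from the GENCODE start or overlap the gene's own exon and are not shown. It lay 72 to 67 bases before the start of *Trim63*, 113 to 108 bases before that of *Trim54*, 10 to 5 bases before that of *Klhl40* and 127 to 122 bases before that of *Klhl41*. *Fbxo40* held it at 81 to 76 and at 53 to 48 bases before its start. A farther RefSeq window of *Fbxo40*, not shown, also held CAGCTG, 89 to 84 bases before a start 11331 bases from the GENCODE start. Of 32851 RefSeq windows of this length, 13% held CAGCTG and 66.2% held CANNTG. The MEF2 motif, in 2.92% of windows, was present in *Klhl41* and *Fbxo40*. The forkhead motif GTAAACA, searched on both strands and found in 3.17% of windows, was present in *Trim63* only among the 5, on the opposite strand 194 to 188 bases before the start. CAGGTG, a form of the E-box in 17.2% of windows, was found on the opposite strand in *Klhl41* and *Fbxo40*, and the CArG box, in 1.47%, in none of the 5. These matches describe letters and not bound sites. The *Klhl40* window also overlaps an exon of *Gm47108* on the other strand, which had 0 counts.

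Of the 10 genes, 5 (*Trim63*, *Trim54*, *Trim55*, *Klhl40* and *Klhl41*) were lower in dCas9-KRAB-En5 past both cutoffs of the study, 0.01 on the adjusted p and 1 on the size of the log2 fold change, in edgeR's quasi-likelihood test, and 0 were higher (0 also by DESeq2, and 0 at an unadjusted p under 0.05). Among all 14378 genes tested, 4.67% were called lower and 1.52% higher. *Asb5*, *Klhl30*, *Fbxo32* and *Fbxo40* were tested and did not pass, and *Klhl31* was too low for the count filter. *Trim63*, *Trim54*, *Trim55* and *Klhl40* passed that filter through their dCas9-KRAB libraries alone, so these genes could enter the test only by differing. In TPM, 7 of the 10 genes were lower in every dCas9-KRAB-En5 library than in any dCas9-KRAB library, which held for 13.9% of all genes listed, and the other 3 overlapped. In the model blocked on replicate number, 6 of the 10 were called lower, since *Asb5* joined the 5, against 6.79% of all genes tested. DESeq2 called 7 lower, with *Asb5* and *Klhl31* added, against 8.66% of its genes. Without dCas9-KRAB replicate 1 the count was 3 against 1.43% of genes, and without dCas9-KRAB-En5 replicate 3, which stood apart, it was 7 against 14%.

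**Figure D1:**
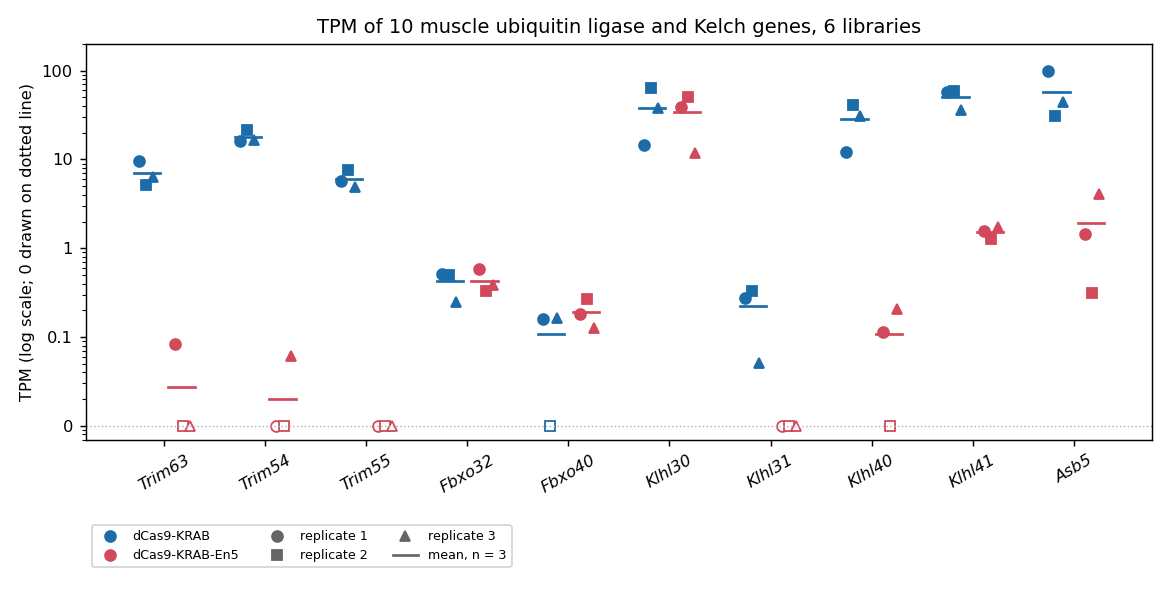
Level of each of the 10 genes in TPM on a log scale, with 1 point per library, shapes for replicate numbers and short lines for the mean of 3 libraries. Open symbols on the dotted line are libraries at 0. The 2 groups are apart for *Trim63*, *Trim54*, *Trim55*, *Klhl31*, *Klhl40*, *Klhl41* and *Asb5* and overlap for *Fbxo32*, *Fbxo40* and *Klhl30*.

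The MuRF ligases were present in dCas9-KRAB cells and near or at 0 in dCas9-KRAB-En5 cells. *Trim63* (MuRF1; chromosome 4, 134315120-134329629), which ubiquitinates thick filament proteins, was at 9.56, 5.20 and 6.29 TPM in dCas9-KRAB and at 0.0830, 0 and 0 TPM in dCas9-KRAB-En5. Its counts were 737, 553 and 800 against 5, 0 and 0, so the highest dCas9-KRAB-En5 library lay far below the lowest dCas9-KRAB library. The fitted log2 fold change of *Trim63* was -8.13 ± 1.01 (SE; edgeR adjusted p = 0.000384). Its size rests on the 5 counts of dCas9-KRAB-En5 replicate 1 and was -12.25 without that library. Without dCas9-KRAB replicate 1, its adjusted p was 0.0106, just above the cutoff and so not called, with a log2 fold change of -7.88.

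*Trim54* (MuRF3; chromosome 5, 31116712-31137630), known as a microtubule-binding partner of the other MuRF proteins, was the highest of the 3. It was at 16.2, 21.5 and 16.5 TPM in dCas9-KRAB and at 0, 0 and 0.0609 TPM in dCas9-KRAB-En5, the last from 2 counts. Against 632, 1157 and 1059 counts in dCas9-KRAB, these 2 counts gave a pooled ratio of 844 in CPM, counts scaled to library size (95% counting interval 234 to 6976). edgeR's fitted log2 fold change of *Trim54* was -9.51 ± 1.00 (SE; adjusted p = 0.000114). Its size rests on those 2 counts and was -12.76 without dCas9-KRAB-En5 replicate 3 and -4.21 with limma on log2(TPM + 1). *Trim54* stayed past both cutoffs in 14 of 14 alternative settings that gave a value. *Trim55* (MuRF2; chromosome 3, 19644474-19692421), which binds titin early in myofibril assembly, was at 5.65, 7.59 and 4.85 TPM in dCas9-KRAB and at 0 in each dCas9-KRAB-En5 library. With a floor of 3 counts in each of those libraries, its mean CPM in dCas9-KRAB-En5 was lower by at least 115-fold, and its edgeR adjusted p was 0.000113.

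The summed level of the 3 MuRF genes was 31.1 ± 3.36 TPM (SD, n = 3) in dCas9-KRAB and 0.0480 ± 0.0430 TPM (SD, n = 3) in dCas9-KRAB-En5. The sum ranged narrowly among dCas9-KRAB libraries, from 27.6 to 34.3 TPM, although the genes did not keep 1 ratio. *Trim54* was 2.84 to 3.39 times *Trim55* in TPM across the 3 dCas9-KRAB libraries but 1.70 to 4.14 times *Trim63*. *Trim63* lay above *Trim55* in replicates 1 and 3 and below it in replicate 2.

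The F-box genes were low in both groups. *Fbxo32* (atrogin-1; chromosome 15, 58175879-58214932) was at 0.518, 0.502 and 0.250 TPM in dCas9-KRAB and at 0.589, 0.330 and 0.382 TPM in dCas9-KRAB-En5, from 39 to 131 counts per library. The groups overlapped, with means of 0.423 ± 0.150 and 0.433 ± 0.137 TPM (SD, n = 3 each). Its log2 fold change was -0.01 with a 95% interval of -1.49 to 1.47 (edgeR adjusted p = 0.996). Across 15 alternatives its log2 fold change ranged from -0.46 to 0.32, so it took no fixed direction.

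*Fbxo40* (chromosome 16, 36963460-36990467), a muscle F-box protein known to target IRS1 in insulin-like growth factor signalling, was at 0.160, 0 and 0.162 TPM in dCas9-KRAB and at 0.180, 0.267 and 0.127 TPM in dCas9-KRAB-En5. The highest library had 40 counts, and dCas9-KRAB replicate 2 had 0 among 66910018, which allows up to 0.0448 CPM. The groups overlapped, and the 95% interval of its log2 fold change, 0.57, ran from -2.09 to 3.22 (edgeR adjusted p = 0.777). Neither F-box gene passed the cutoffs under any alternative. Of the 2 classical atrophy ligases, *Trim63* was 16.6 times as high as *Fbxo32* in mean dCas9-KRAB TPM, and the difference between their fold changes was not tested.

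Among the Kelch genes, *Klhl41* and *Klhl40* fell and *Klhl30* was not called. *Klhl41* (chromosome 2, 69670120-69684230), a partner of nebulin and NRAP, was at 57.9, 58.9 and 36.4 TPM in dCas9-KRAB and at 1.57, 1.26 and 1.73 TPM in dCas9-KRAB-En5. Its 54 to 100 counts in each dCas9-KRAB-En5 library were above the count filter. Its mean TPM was 33.6-fold lower in dCas9-KRAB-En5, and edgeR's log2 fold change of -5.02 ± 0.60 (SE; adjusted p = 0.000297) was past both cutoffs in 15 of 15 alternatives. *Klhl41* ranked above 86.6% to 91.4% of the genes listed in each dCas9-KRAB library and above 40.6% to 46.7% in each dCas9-KRAB-En5 library.

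*Klhl40* (chromosome 9, 121777607-121783818), which stabilizes nebulin and leiomodin 3, was at 12.3, 41.4 and 31.1 TPM in dCas9-KRAB and at 0.113, 0 and 0.210 TPM in dCas9-KRAB-En5. dCas9-KRAB replicate 1 was the lowest of its group, with 832 counts against 3873 and 3480, and still lay far above the 6, 0 and 12 counts of dCas9-KRAB-En5. The fitted log2 fold change of *Klhl40* was -7.80 ± 1.05 (SE; edgeR adjusted p = 0.00067), and -9.36 without dCas9-KRAB-En5 replicate 3, which held 12 of the counts of its group. Without dCas9-KRAB replicate 1 it was -8.18 with an adjusted p of 0.0115, which missed the cutoff.

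*Klhl31* (chromosome 9, 77636500-77660127), whose known substrate is filamin C, had 49, 81 and 15 counts in dCas9-KRAB and 0 in every dCas9-KRAB-En5 library. Its levels of 0.278, 0.333 and 0.0516 TPM were too low for the count filter. Against the floor of 3 counts per library, the mean CPM of *Klhl31* was lower by at least 10.3-fold. With no filter edgeR gave it an adjusted p of 0.00051, and it was called in 3 of the 6 settings that gave it a value, the adjusted p reaching 0.0407 in the others.

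*Klhl30* (chromosome 1, 91351016-91362416), a muscle-enriched Kelch gene of little known function, was at a level of the same order in both groups. It was at 14.6, 63.3 and 37.6 TPM in dCas9-KRAB and at 39.4, 50.8 and 11.8 TPM in dCas9-KRAB-En5, and the groups overlapped almost fully. The means were 38.5 ± 24.3 and 34.0 ± 20.0 TPM (SD, n = 3 each). Its log2 fold change was -0.48 with a 95% interval of -1.60 to 0.65 (edgeR adjusted p = 0.556), and it was not called in any of 15 alternatives, where the log2 fold change ranged from -0.91 to -0.07. *Klhl30* ranked above 76.7% to 89.3% of the genes listed in the dCas9-KRAB-En5 libraries and above 79.5% to 90.1% in dCas9-KRAB.

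The ratio of *Klhl30* to other members was computed after their values were seen and is given as a description, with no test. *Klhl30* over *Klhl41* in TPM was 0.253, 1.07 and 1.03 in dCas9-KRAB and 25.1, 40.3 and 6.83 in dCas9-KRAB-En5. *Klhl30* over *Asb5* was 0.148 to 2.06 against 2.91 to 162, whereas *Klhl41* over *Asb5* overlapped between the groups. The dCas9-KRAB-En5 library with the smallest ratio of *Klhl30* to *Klhl41* was replicate 3, the one that stood apart.

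*Asb5* (chromosome 8, 54529580-54587842), an ankyrin repeat adaptor of cullin 5 ligases, was lower in every dCas9-KRAB-En5 library but varied widely. It was at 99.0, 30.7 and 44.3 TPM in dCas9-KRAB and at 1.46, 0.313 and 4.06 TPM in dCas9-KRAB-En5, with 6075, 2597 and 4487 counts against 70, 12 and 210. The means of 58.0 ± 36.1 and 1.94 ± 1.92 TPM (SD, n = 3 each) differed 29.8-fold, nearly as much as those of *Klhl41*. Its log2 fold change was -4.55 ± 1.05 (SE; 95% interval -6.83 to -2.26; edgeR adjusted p = 0.0134), which missed the cutoff. Replicate 2 was the lowest of both groups, and in the blocked model the log2 fold change was -5.56 with an adjusted p of 0.000248, past both cutoffs. The adjusted p of *Asb5* reached 0.0903 without dCas9-KRAB replicate 1 and was 0.000485 without dCas9-KRAB-En5 replicate 3 and 0.0088 without dCas9-KRAB-En5 replicate 2. The deposited TPM of *Asb5* imply a length of 2262 bases against 1843 bases of annotated exons in GENCODE vM21, so its TPM rest on another exon set. In GENCODE, 75 exon bases are shared with *Spcs3* on the other strand, which had 8340 counts over the 6 libraries. The strand setting is not given, and whether *Spcs3* reads were counted for *Asb5* was not tested.

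**Figure D2:**
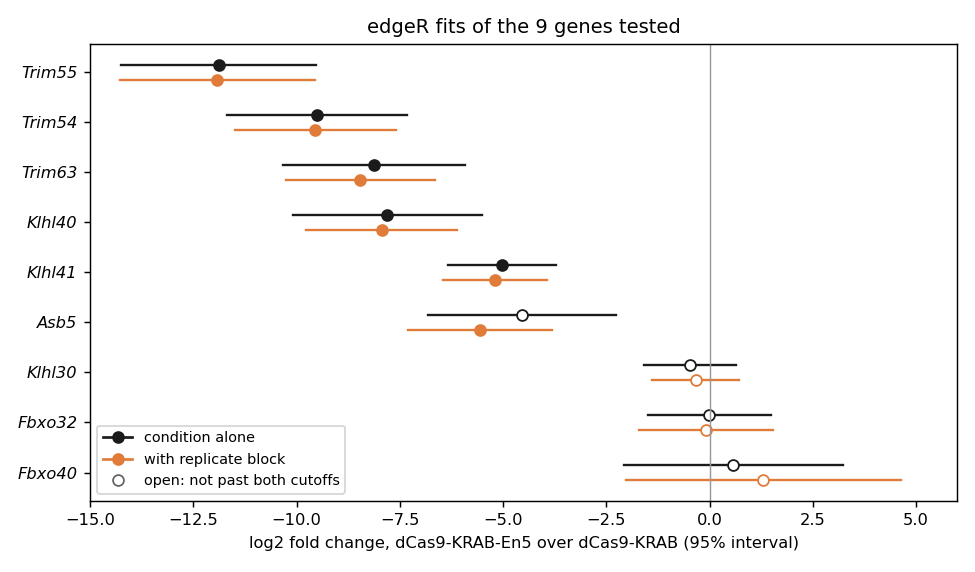
log2 fold change of the 9 genes tested by edgeR, dCas9-KRAB-En5 over dCas9-KRAB, with 95% intervals, for the model with condition alone (black) and with the replicate block (orange). Filled symbols are past both cutoffs and open symbols are not. *Asb5* is the gene whose call changes between the models, and the estimate for *Trim55*, at 0 in all dCas9-KRAB-En5 libraries, depends on the prior count and is no measured fold. Those for *Trim63* and *Trim54* rest on 5 and 2 counts in that group.

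By mean TPM, the order in dCas9-KRAB was *Asb5*, *Klhl41*, *Klhl30*, *Klhl40*, *Trim54*, *Trim63*, *Trim55*, *Fbxo32*, *Klhl31* and *Fbxo40*. Neighbours in this order overlapped between libraries except *Trim54* above *Trim63* and *Trim55* above *Fbxo32*. Within each dCas9-KRAB library, *Klhl30* also lay above *Klhl40* and *Fbxo32* above *Klhl31*. In dCas9-KRAB-En5 *Klhl30* came first at 34.0 TPM and did not overlap *Asb5*, the next at 1.94 TPM. *Asb5* and *Klhl41* overlapped each other, *Klhl41* lay above *Fbxo32* and *Fbxo32* above *Fbxo40* in all libraries, and *Klhl40*, *Trim63*, *Trim54*, *Trim55* and *Klhl31* followed at or near 0.

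The summed level of the 10 genes was 208 ± 27.0 TPM (SD, n = 3) in dCas9-KRAB and 38.2 ± 17.9 TPM (SD, n = 3) in dCas9-KRAB-En5. An exact two-sided permutation over libraries gave p = 0.1, the lowest that 3 against 3 can give. Genes given above as apart between the groups make up most of the dCas9-KRAB sum, so this p adds no support. What remained in dCas9-KRAB-En5 was mostly *Klhl30*, whose share of the sum was 6.77% to 27.6% in dCas9-KRAB and 64.3% to 95.9% in dCas9-KRAB-En5. Without *Klhl30* the sums were 169 ± 31.0 and 4.24 ± 2.21 TPM (SD, n = 3 each).

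**Figure D3:**
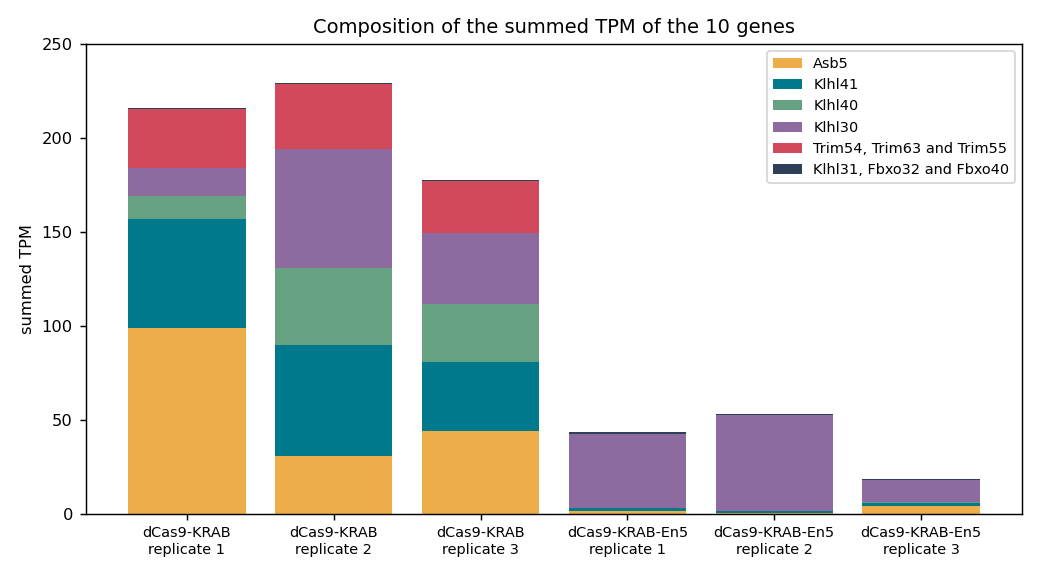
Summed TPM of the 10 genes in each library, stacked by gene or class. The 3 dCas9-KRAB bars reach 177 to 229 TPM and are made of several genes, whereas the dCas9-KRAB-En5 bars reach 18.4 to 52.9 TPM and are mostly *Klhl30*.

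The cullin-RING machinery that the adaptors need was measured in both groups. Of 24 genes for cullins, RING subunits, NEDD8 enzymes and ubiquitin-conjugating enzymes, 24 were tested and 0 were called in either direction by edgeR with or without the replicate block, and DESeq2 called 1 lower. At an unadjusted p under 0.05 in edgeR, 4 were lower and 3 higher. The median log2 fold change of the 24 was -0.00, beside 0.08 over all genes tested. *Cul3*, the scaffold for Kelch adaptors, was at 3.26, 3.49 and 1.69 TPM in dCas9-KRAB and at 20.3, 14.5 and 1.59 TPM in dCas9-KRAB-En5, where replicate 3 was unlike the other two (log2 fold change 1.68 ± 0.61 SE, edgeR adjusted p = 0.0774). *Cul1*, the scaffold for F-box adaptors, had a log2 fold change of -0.03 ± 0.57 (SE, adjusted p = 0.981), and *Cul5*, that for SOCS-box adaptors, one of 0.14 ± 0.72 (SE, adjusted p = 0.913).

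Genes that encode known substrates or partners of the 10 proteins were mostly lower. Of 16, 15 were tested, 10 fell (66.7%, beside 4.67% of all genes tested) and 0 rose, with a median log2 fold change of -5.96. Those that fell are sarcomere and muscle genes, which were also in part the markers above, and were listed with earlier results known. *Lmod3*, leiomodin 3, a partner of KLHL40, was at 6.06 to 11.9 TPM in dCas9-KRAB and at 0 in the 3 dCas9-KRAB-En5 libraries. *Neb*, nebulin, a partner of KLHL40 and KLHL41, had a log2 fold change of -6.80 ± 0.89 (SE), and *Nrap*, which KLHL41 binds, one of -7.31 ± 0.87 (SE). Those sizes rest on 3, 7 and 0 counts of *Neb* and 2, 2 and 0 of *Nrap* in dCas9-KRAB-En5. *Lmod3*, *Neb*, *Nrap*, *Myod1*, *Myl1*, *Mybpc2* and *Ttn* passed the count filter through their dCas9-KRAB libraries alone, so they could enter the test only by differing. The share of partners called lower is therefore in part set by the filter. *Flnc*, filamin C, the substrate of KLHL31, fell by 4.38 on the log2 scale, from 17.6 to 54.9 TPM down to 1.16 to 2.14 TPM. *Mylpf* and *Myod1*, a fast myosin light chain and the myogenic factor that atrogin-1 ubiquitinates, had the smallest adjusted p of the list (1.82e-05 for both, edgeR). By contrast *Eif3f*, a translation factor that atrogin-1 also targets, had a log2 fold change of 0.35 ± 0.49 (SE, adjusted p = 0.658), and *Irs1*, the substrate of FBXO40, one of -2.45 ± 1.17 (SE, adjusted p = 0.168) at levels below 1 TPM.

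The wider atrophy programme was called lower at about the share of all genes. Of 24 genes, 22 were tested, of which 1 (4.55%, beside 4.67% of all genes tested) fell, 1 rose and 20 were not called, with a median log2 fold change of 0.66. DESeq2 called 2 lower and 4 higher, and 4 were lower and 6 higher at an unadjusted p under 0.05 in edgeR. *Gadd45a*, a stress gene induced on denervation, fell by 2.89 on the log2 scale (SE 0.55, edgeR adjusted p = 0.00551). *Txnip*, an inhibitor of thioredoxin, was at 133 to 154 TPM in dCas9-KRAB and 497 to 1862 TPM in dCas9-KRAB-En5 (log2 fold change 2.86, SE 0.50, adjusted p = 0.00373). *Foxo3*, a forkhead factor known to induce *Trim63* and *Fbxo32*, was at 1.13, 4.38 and 2.04 TPM in dCas9-KRAB and at 26.0, 37.8 and 2.57 TPM in dCas9-KRAB-En5. It was not called with condition alone (adjusted p = 0.0194) and was called higher with the replicate block (log2 fold change 2.53, adjusted p = 0.007), with dCas9-KRAB-En5 replicate 3 inside the range of dCas9-KRAB.

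Among 32 other ubiquitin ligases studied in muscle, 27 were tested, 2 (7.41%, beside 4.67% of all genes tested) fell and 0 rose, with a median log2 fold change of 0.82. DESeq2 called 4 lower and 3 higher, and 6 were lower and 11 higher at an unadjusted p under 0.05 in edgeR. *Trim72* (MG53), a membrane repair protein of muscle, was at 14.6, 68.5 and 41.1 TPM in dCas9-KRAB and at 0.233, 0.132 and 0 TPM in dCas9-KRAB-En5. Its log2 fold change was -8.69 ± 0.92 (SE; edgeR adjusted p = 0.000124), and its size rests on 11, 5 and 0 counts in dCas9-KRAB-En5. *Asb16* had 37, 315 and 225 counts in dCas9-KRAB and 0 in each dCas9-KRAB-En5 library (edgeR adjusted p = 0.00234). *Trim72* and *Asb16* passed the count filter through their dCas9-KRAB libraries alone, so they could enter the test only by differing. With the replicate block *Nedd4* was also lower and *Mdm2* higher past both cutoffs.

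The relatives of the 10 genes were taken by symbol. Of 50 other Trim genes, 37 were tested and *Trim72* was the 1 called by edgeR with condition alone. The blocked model called 2 lower, adding *Trim47* (74.7 ± 32.8 against 7.74 ± 6.23 TPM; SD, n = 3 each; log2 fold change -3.58, adjusted p = 0.00141), and DESeq2 called 3 lower and 2 higher, with 7 lower and 10 higher at an unadjusted p under 0.05. Of 35 other Klhl and Kbtbd genes, 26 were tested and 0 were called by edgeR (0 lower and 1 higher with the block, 0 and 2 with DESeq2, 0 and 9 at an unadjusted p under 0.05). Of the 26 log2 fold changes, 22 were above 0, with a median of 0.86. Among all genes tested, 7522 of 14378 were above 0, with a median of 0.08. Of 15 other Asb genes, 11 were tested and *Asb16* was the 1 called (2 lower with DESeq2, 3 lower and 0 higher at an unadjusted p under 0.05). As given above, *Trim72* and *Asb16* could enter the test only by differing. Of 31 other Fbxo genes, 28 were tested, *Fbxo17* fell (3.30 ± 1.12 against 0.135 ± 0.0381 TPM; SD, n = 3 each) and *Fbxo2*, a reader of sugar-bearing proteins, rose (1.17 ± 0.859 against 12.5 ± 2.30 TPM; SD, n = 3 each), where DESeq2 called 1 lower and 3 higher and 2 were lower and 9 higher at an unadjusted p under 0.05. Over all genes, the blocked model called 976 lower and 567 higher of 14378, and DESeq2 called 1423 lower and 967 higher of 16436. Counts at an unadjusted p under 0.05, here and above, have no such share beside them, since none was computed over all genes. The 10 genes were chosen for their role in muscle and the relatives were not, and the difference between them was not tested.

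**Figure D4:**
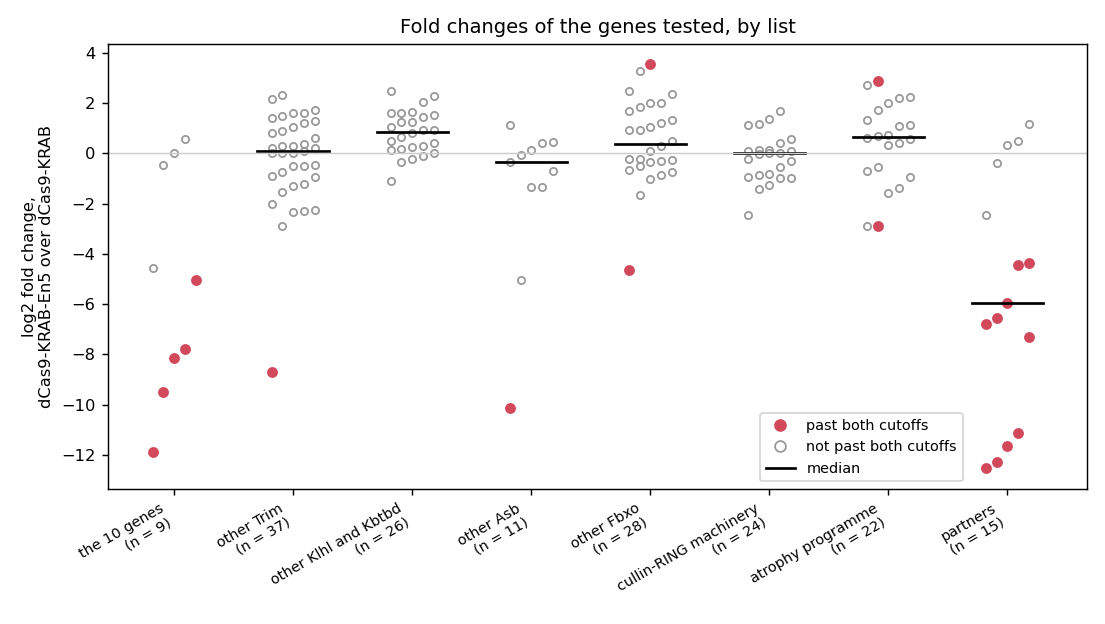
log2 fold change, dCas9-KRAB-En5 over dCas9-KRAB, of every gene tested in the set of 10, in 4 gene families without those genes, and in 3 lists (partners are the substrates and sarcomere partners). Red points are past both cutoffs, open points are not, and black lines are medians, drawn for all but the set of 10. Most relatives lie between -3 and 3, while 10 of the 15 partners tested are called lower, beside 4.67% of all genes tested. Several of these partners passed the count filter through dCas9-KRAB alone, as named in the text.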

How the data were processed

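Polyadenylated RNA of 6 C2C12 libraries (3 dCas9-KRAB and 3 dCas9-KRAB-En5, grouped by their labels) was analysed. The authors aligned reads with HISAT2 2.2.1 to GRCm38, used featureCounts for gene counts, and deposited both raw counts and TPM of every library. The strand setting is not given in the sources used here. The deposited TPM imply gene lengths within 1% of the GENCODE vM21 exon length for 98.3% of genes. A gene not listed in a library was taken as 0, and 23155 of 23231 genes matched a symbol.

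Counts were tested across all genes with edgeR 4.0.16 in R 4.3.3 (TMM, filterByExpr with minimum count 10 and minimum total 15, quasi-likelihood test, Benjamini-Hochberg adjustment), with condition alone and the cutoffs of the study. Each edgeR SE was computed as the size of the log2 fold change over the square root of the quasi-likelihood F, so it is approximate. Same-numbered libraries deviated together (correlations 0.262, 0.214 and 0.290, against -0.340 to -0.051 for different numbers). Each gene was centred within its group of 3, so values above 0 for the same number push the others below 0. This contrast does not establish a pairing. The model with replicate number as a block is given where it changes the call of a member or list gene. Of the marker lists, it is given for the macrophage markers only. The pairing comes from the label numbers. Alternatives were DESeq2 1.42.0 on counts, limma-trend 3.58.1 with TPM logged after adding 1 or 0.1, other scalings, filters and cutoffs, and leaving out each library. The code was tested on simulated data. Replicate pairs differed beyond sampling noise (chi-square per degree of freedom at least 110.2). Intervals and the floor of 3 counts cover counting error only. Single values were compared by exact permutation over the 20 splits.

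Genes named are the 10 members, up to 2 called genes in each direction per list, by adjusted p, partners described with a member, and the 5 genes most like the members. *Foxo3*, *Nedd4*, *Mdm2*, *Trim47*, *Cul1*, *Cul3*, *Cul5* and the markers *Chodl*, *Msc*, *Thy1*, *Mrc1*, *Fabp4* and *Pparg* were named outside this rule, after their values were seen. *Myl1*, *Mybpc2* and *Ttn* were named for the count filter alone. The members and lists were chosen with earlier results of these data known. Promoter windows are from RefSeq (GRCm38.p6) and were found for 7 of the 10 genes.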

Additional observations from a re-analysis of the deposited data

How the results depend on the processing

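The call of *Trim54*, *Trim55* and *Klhl41* was kept in every alternative that gave them a value, and *Fbxo32*, *Fbxo40* and *Klhl30* were called in none. Of the values of single genes under alternatives, 117 kept their direction and their side of the cutoffs, 7 moved past the cutoffs (all *Asb5*), 5 no longer passed and 6 changed sign without being called. The log2 fold change of *Fbxo32*, -0.01, became 0.012 and 0.045 with limma on log2(TPM + 1) and log2(TPM + 0.1), and ranged from -0.46 to 0.32 when 1 library was left out, being above 0 without dCas9-KRAB replicates 1 and 2 and dCas9-KRAB-En5 replicate 2. That of *Fbxo40*, 0.57, ranged from -0.035 (without dCas9-KRAB replicate 2) to 0.96. The number of the 10 genes called lower was 5, became 1 when at least 10 counts were required in every library, since *Klhl41* was then the only called gene left to test, and ranged from 3 to 7 when 1 library was left out. The 3 came without dCas9-KRAB replicate 1 and the 7 without dCas9-KRAB-En5 replicate 3. Over all genes, 890 were called. This became 586 with total counts only, 2390 with DESeq2, 2198 with no low-count filter, 544 with at least 10 counts in every library, 1543 with the replicate block, 514 with limma on log2(TPM + 1) and 2449 with 0.05 as the limit on adjusted p, and ranged from 222 (without dCas9-KRAB replicate 1) to 3921 (without dCas9-KRAB-En5 replicate 3) when 1 library was left out. The cause was not tested. The replicate block changed no call of the 10 genes other than that of *Asb5*. Depth limits the low genes: a library with 0 counts allows up to 0.0405 to 0.0942 CPM (counts scaled to library size), and *Fbxo32*, *Fbxo40* and *Klhl31* were measured with at most 131 counts per library. Annotated transcripts of *Klhl40* and *Trim54* shared 20% and 18.4% of their 50-base words with other genes on either strand, mostly antisense genes with 0 counts.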

Other observations

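The 5 genes whose log2(TPM + 1) was most like the mean standardized profile of the 9 members tested, by Pearson's r over the 6 libraries, were *Laptm4b* (0.998), *Ppic* (0.998), *Hsf2bp* (0.998), *Ifi204* (0.998) and *Vma21* (0.997). The libraries form 2 groups, so any gene that separates them scores high. Against the same profile, which includes the gene itself, r was 0.971 to 0.978 for *Trim63*, *Trim54*, *Trim55* and *Klhl41*, 0.943 for *Klhl40*, 0.895 for *Asb5*, 0.214 for *Klhl30*, 0.103 for *Fbxo32* and -0.496 for *Fbxo40*.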
